A study of Mus musculus with 28 samples.

Results

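PRC1.6 is a variant form of Polycomb repressive complex 1, and the 8 genes described here, Pcgf6, Mga, Max, E2f6, L3mbtl2, Rnf2, Ring1 and Rybp, encode its subunits. They were taken by symbol from the 53564 genes of the deposited expression table, and all 8 passed the filter on low values (a TPM, the length-corrected share of transcripts, of 1 or more in 2 or more libraries), as did 21935 genes in all. The study followed mouse embryonic stem cells (ESCs, strain C57BL6) with long telomeres (LT, wild type), short telomeres (ST, knockout of Terc, the telomerase RNA gene, at generation 4) or rescued telomeres (RT, Terc-rescued) towards germ cells. The series has 28 RNA-seq samples in 14 groups, of which 16 libraries, 8 groups of 2, were used. For the 1dEB groups, knockout serum replacement, bFGF and Activin A first made epiblast-like cells of the ESCs over 2 days, and induction with LIF, EGF, SCF and BMP4 followed for 1 day; these embryoid bodies were LT-1dEB, ST-1dEB and RT-1dEB. For the 1dMeioLC groups (meiocyte-like cells), induction ran for 4 days to primordial germ cell (PGC)-like cells, which were then aggregated with somatic cells from female E12.5 gonads that carry Actin-GFP, with 3 µM retinoic acid and a Rock inhibitor, and sorted after 1 day as GFP-negative cells; these were LT-1dMeioLC, ST-1dMeioLC and RT-1dMeioLC. E10.5PGC was embryonic PGCs sorted from E10.5 gonads by CD61 and SSEA1 antibodies, and PGC-1dMeioLC was the same kind of PGC after the same 1-day co-culture. The labels do not say whether the 2 libraries of a group came from separate cultures, embryos or clones, so every p-value measures only the spread between these libraries, which may be technical.

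PRC1 complexes place ubiquitin on histone H2A, which marks chromatin for silencing. Each contains RNF2 (RING1B) or RING1 (RING1A) as the ubiquitin ligase and a PCGF protein that defines the variant, which is PCGF6 in PRC1.6. Subunits of PRC1.6 bind DNA: the pair of MGA and MAX reads the E-box CACGTG, and E2F6 with its DP partner reads E2F sites. In embryonic stem cells and somatic cells it is known for keeping germ line and meiotic genes silent, and loss of Max or Mga in mouse ESCs switches on such genes.

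Some promoters of the listed germ line genes show the letters that these subunits read, and 3 of those are printed, with those of 2 members for comparison. Sequences run from 250 bases before to 50 after a transcript start in RefSeq (GRCm38.p6), 5′ to 3′ on the strand given. Capitals mark CACGTG (the E-box, its own reverse complement) and TCCCGC or its reverse complement GCGGGA (an E2F core); a match of the E-box could share an end base with a match of the E2F core. Slc25a31 (a testis ATP/ADP carrier), Stag3 (a meiotic cohesin subunit) and Sycp3 (a synaptonemal complex protein) were picked after their values were seen, from the 7 listed germ line genes with both motifs; E2f6 and L3mbtl2 are members with 1 and no match.
Slc25a31, chr3:40708621-40708920, plus strand: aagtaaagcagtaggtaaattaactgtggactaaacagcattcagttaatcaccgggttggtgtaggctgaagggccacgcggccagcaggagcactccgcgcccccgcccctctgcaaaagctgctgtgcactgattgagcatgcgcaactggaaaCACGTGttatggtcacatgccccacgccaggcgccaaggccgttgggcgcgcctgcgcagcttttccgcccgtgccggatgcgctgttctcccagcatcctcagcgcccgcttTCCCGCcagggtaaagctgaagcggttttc
Stag3, chr5:138280259-138280558, plus strand: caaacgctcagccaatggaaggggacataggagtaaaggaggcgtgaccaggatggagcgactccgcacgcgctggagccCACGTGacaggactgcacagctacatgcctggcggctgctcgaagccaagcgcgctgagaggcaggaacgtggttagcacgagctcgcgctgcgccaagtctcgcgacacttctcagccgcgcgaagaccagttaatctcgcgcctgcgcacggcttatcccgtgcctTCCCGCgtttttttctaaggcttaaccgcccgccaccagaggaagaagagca
Sycp3, chr10:88459337-88459636, plus strand: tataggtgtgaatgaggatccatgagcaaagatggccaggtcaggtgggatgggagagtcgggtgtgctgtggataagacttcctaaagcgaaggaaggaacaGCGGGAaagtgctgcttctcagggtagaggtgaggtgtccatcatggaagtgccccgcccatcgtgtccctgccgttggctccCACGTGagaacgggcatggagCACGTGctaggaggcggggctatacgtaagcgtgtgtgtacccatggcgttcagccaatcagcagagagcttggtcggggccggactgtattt
E2f6, chr12:16810715-16811014, plus strand: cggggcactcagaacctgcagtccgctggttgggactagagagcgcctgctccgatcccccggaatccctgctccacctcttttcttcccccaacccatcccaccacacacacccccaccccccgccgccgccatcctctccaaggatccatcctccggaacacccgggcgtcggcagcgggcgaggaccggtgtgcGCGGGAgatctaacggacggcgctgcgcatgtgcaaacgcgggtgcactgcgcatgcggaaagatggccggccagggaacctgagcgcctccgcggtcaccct
L3mbtl2, chr15:81663639-81663938, plus strand: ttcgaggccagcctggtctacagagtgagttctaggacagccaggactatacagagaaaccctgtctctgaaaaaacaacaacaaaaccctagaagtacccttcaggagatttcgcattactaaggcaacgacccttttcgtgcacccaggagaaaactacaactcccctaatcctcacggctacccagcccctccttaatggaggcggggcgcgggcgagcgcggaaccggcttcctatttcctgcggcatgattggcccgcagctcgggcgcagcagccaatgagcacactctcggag
Of the 26 listed germ line and meiotic genes, 23 had an entry in the promoter table. The E-box stood in a promoter of 12 of these 23 genes (52.2%), the E2F core in 11 (47.8%) and both in 7 (30.4%). Neither motif stood in Dazl, Stra8, Syce1, Sycp2, Tdrkh, Tex101 or Zcwpw1. Over all 27025 genes of the table the shares were 8.09% for the E-box, 22.0% for the E2F core and 2.32% for both. Of the 7 members with an entry, the E-box stood in 1 (Max), the E2F core in 2 (E2f6 and Rnf2) and both in none. The list was made of genes known to be under PRC1.6, so these shares do not test whether its targets carry the motifs. A match is a stretch of letters in this window, not a measured binding site.

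Values are TPM divided by the summed TPM of nuclear protein-coding genes in the library and put back on the TPM scale, called coding-scaled TPM below; they are corrected for gene length, so levels of different genes can be set side by side. That share of the deposited TPM differed between groups, from 28.2% ± 1.39 (SD, n = 2) in RT-1dEB and 38.8% ± 0.11 in LT-1dEB to 61.2% ± 0.14 in E10.5PGC, so each statement on 1dEB depends on the scale. Where the call of a member ended with TPM as deposited, that value or the loss of the call is given. Read depth is unknown. Terc, the targeted gene, was listed at 0 in all 4 ST libraries, at 2.38 to 8.87 coding-scaled TPM in the 4 LT libraries, at 1.15 to 12.3 in the 4 RT libraries, at 1.55 and 1.59 in E10.5PGC and at 0 in both PGC-1dMeioLC libraries, where the labels name no knockout. The pluripotent and epiblast marker list (7 genes) summed to between 1504 and 2621 coding-scaled TPM in 1dEB libraries and to between 124 and 253 in 1dMeioLC libraries, while the germ cell list (8 genes) summed to between 132 and 239 in 1dEB, to between 6137 and 6140 in E10.5PGC and to between 308 and 1896 in 1dMeioLC, lowest in ST-1dMeioLC. Markers of other cells were present in the sorted 1dMeioLC libraries. The gonadal somatic list (9 genes) summed to between 246 and 434, against 36.1 to 38.6 in E10.5PGC and 44.5 to 86.7 in 1dEB. The blood and endothelium list (8 genes, mostly Hba-a1) summed to between 929 and 2650, against 1340 to 1343 in E10.5PGC and 9.70 to 17.0 in 1dEB. Stroma markers (8 genes) summed to between 64.3 and 67.6 in LT-1dEB, 691 and 709 in RT-1dEB and 1191 and 1222 in ST-1dEB. Defining markers at 0 in both libraries of a group included Ptprc and Lyve1 in LT-1dEB, Cdh5, Lyve1 and Thy1 in ST-1dMeioLC and Foxl2 and Mgp in E10.5PGC. The part of these cells in the differences below was not tested, and in bulk samples fewer cells of a type and less RNA per cell cannot be told apart.

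The members moved in both directions between embryoid bodies and meiocyte-like cells. This change is called stage below. It joins longer induction, co-culture with gonadal cells, retinoic acid, a Rock inhibitor and sorting, which cannot be told apart. In all 3 lines L3mbtl2, Mga, Max and Pcgf6 fell, and E2f6 and Rnf2 rose. By limma on log2(coding-scaled TPM + 1) with Benjamini-Hochberg adjustment over all genes, 7 members passed in the LT line (2 higher, 5 lower; of all genes 65% passed, 27.6% higher and 37.5% lower). In the ST line 7 passed (2 higher, 5 lower; of all genes 63%, 25.5% and 37.5%), and in the RT line all 8 did (2 higher, 6 lower; of all genes 68.5%, 23.5% and 45.1%). Most genes of the table passed in these comparisons, and whether the members passed more often than other genes was not tested. The median change of all genes was -0.17, -0.21 and -0.45 on the log2 scale in LT, ST and RT, and 0.19, 0.00 and 0.30 with TPM as deposited. Each of these member calls held with any library left out of its comparison, and those of members other than Pcgf6 held under every other alternative in which the member was tested; the filter of 5 TPM removed Ring1 and Rybp.

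**Figure D1:**
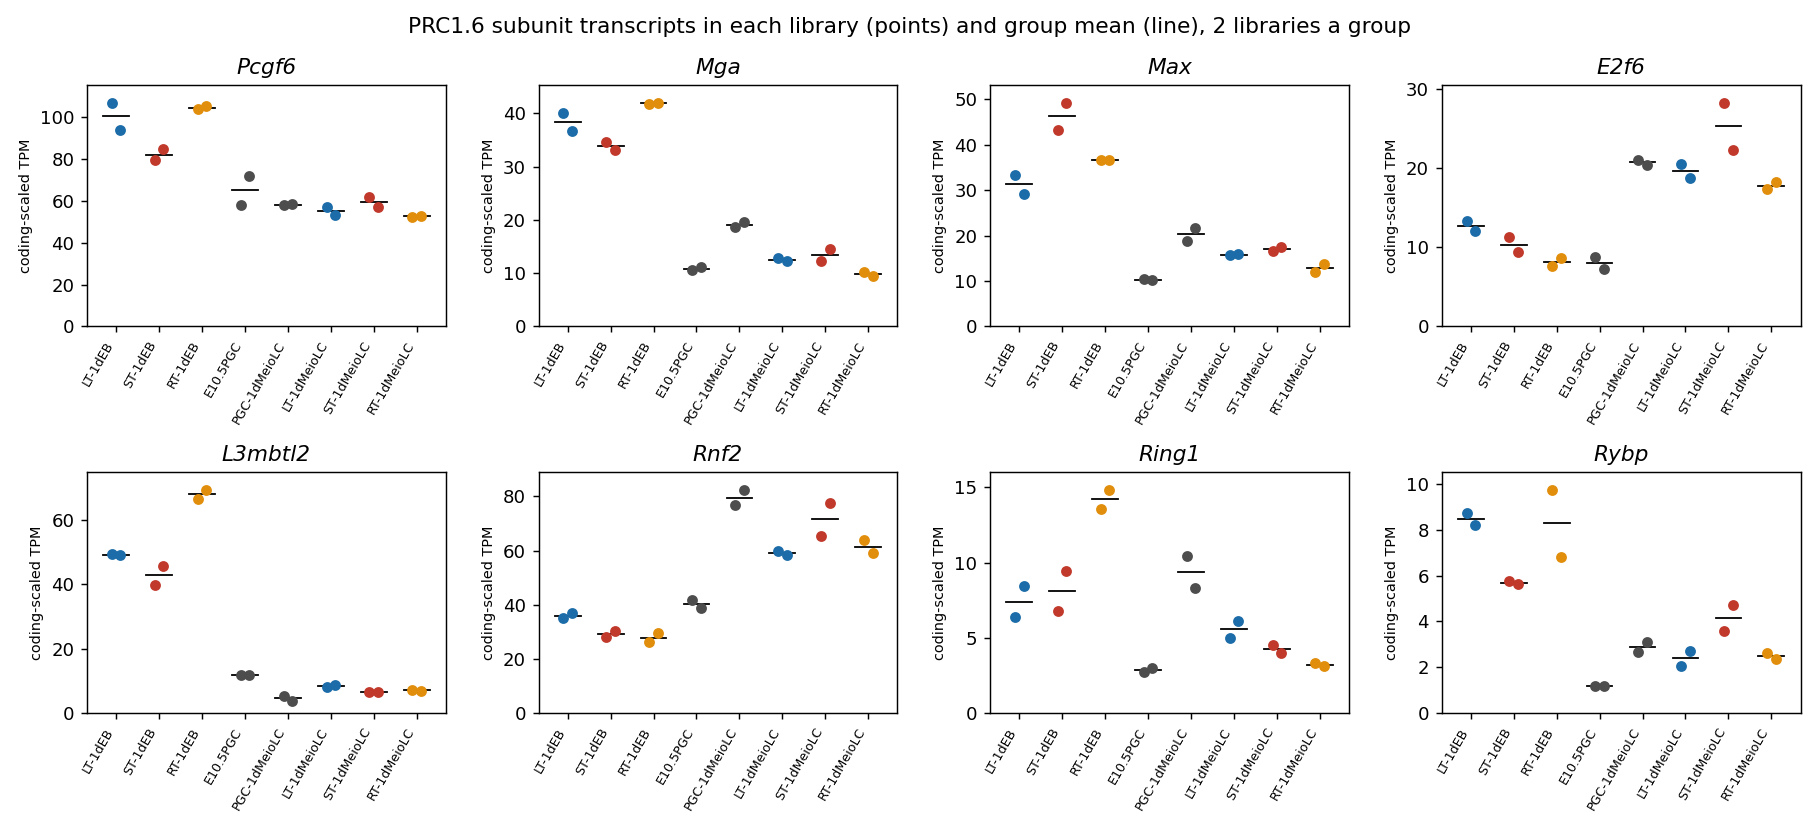
Coding-scaled TPM of the 8 members, 1 panel each with its own linear axis from 0; each point is a library, each line a group mean, and the 8 groups of 2 stand along the horizontal axis. L3mbtl2 lies between 39.8 and 69.3 in the 6 embryoid body libraries and between 3.90 and 8.65 in the 8 meiocyte-like libraries, while Rnf2 lies between 26.1 and 36.8 and between 58.3 and 82.5.

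L3mbtl2 (chromosome 15, 81663889 to 81688315, GENCODE M21 on mm10), whose protein has MBT domains and helps bring PRC1.6 to chromatin, had the widest range of the 8. Its coding-scaled TPM was 49.2 and 48.9 in LT-1dEB, 39.8 and 45.6 in ST-1dEB and 66.4 and 69.3 in RT-1dEB. It was 11.9 and 11.8 in E10.5PGC. In the meiocyte-like cells it was 7.98 and 8.65 (LT), 6.51 and 6.62 (ST), 7.14 and 6.94 (RT) and 5.33 and 3.90 (PGC). Every embryoid body library was above every other library, and no 2 neighbouring groups in the order of levels overlapped. The highest group mean was 14.7 times the lowest. Between group means of log2(coding-scaled TPM + 1) its range was 3.63, above that of 87.2% of the genes kept. The same share was 8.33% for Pcgf6, 26.4% for Rnf2, 28.5% for E2f6, 46.7% for Ring1, 47.5% for Mga, 50.4% for Max and 51.7% for Rybp. Its log2 change from 1dEB to 1dMeioLC was -2.43 ± 0.11 (SE) in LT (adjusted p = 2.1e-08), -2.53 in ST (adjusted p = 1.8e-08) and -3.10 in RT (adjusted p = 3.4e-09). With TPM as deposited the changes were -1.73, -2.07 and -1.93, all called.

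Mga (chromosome 2, 119897228 to 119969581), the large scaffold with a T-box and a helix-loop-helix domain, fell in the same way. Its coding-scaled TPM was 40.0 and 36.7 in LT-1dEB, 34.5 and 33.1 in ST-1dEB and 41.7 and 42.0 in RT-1dEB. The values were 10.6 and 11.1 in E10.5PGC, 18.6 and 19.5 in PGC-1dMeioLC, 12.8 and 12.2 in LT-1dMeioLC, 12.3 and 14.5 in ST-1dMeioLC and 10.2 and 9.43 in RT-1dMeioLC. The 6 embryoid body libraries were the highest, PGC-1dMeioLC came next, and only ST-1dMeioLC and LT-1dMeioLC overlapped among neighbours. The stage changes were -1.54 ± 0.09 in LT, -1.28 in ST and -1.99 in RT (adjusted p = 7.8e-08, 3.9e-07 and 1.1e-08), and -0.88, -0.90 and -0.88 with TPM as deposited, all called.

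Max (chromosome 12, 76937269 to 76962201), the partner of MGA and of MYC and the MXD proteins, was highest in ST-1dEB. It stood at 33.3 and 29.2 coding-scaled TPM in LT-1dEB, 43.3 and 49.2 in ST-1dEB and 36.6 and 36.6 in RT-1dEB. It stood at 10.4 and 10.2 in E10.5PGC, 18.8 and 21.7 in PGC-1dMeioLC, 15.6 and 15.9 in LT-1dMeioLC, 16.6 and 17.6 in ST-1dMeioLC and 12.0 and 13.6 in RT-1dMeioLC. No neighbouring groups overlapped. Max fell by 0.94 in LT, by 1.38 in ST and by 1.45 in RT on the log2 scale (adjusted p = 1.1e-05, 6e-07 and 3.3e-07); with TPM as deposited the changes were -0.31, -1.01 and -0.36, all called. The group means of Mga and Max had a Pearson r of 0.94 over the 8 groups, which share scaling and gene set.

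Pcgf6 (chromosome 19, 47033617 to 47050906), the subunit that defines the complex, was the most abundant of the 8 in all 1dEB groups and in E10.5PGC, and had the narrowest range (1.99 times from lowest to highest group mean). It had 107 and 94.0 coding-scaled TPM in LT-1dEB, 79.5 and 84.6 in ST-1dEB and 104 and 105 in RT-1dEB. It had 58.2 and 71.9 in E10.5PGC, 57.8 and 58.3 in PGC-1dMeioLC, 56.8 and 53.1 in LT-1dMeioLC, 61.7 and 57.0 in ST-1dMeioLC and 52.1 and 53.0 in RT-1dMeioLC. All 6 embryoid body libraries were above the other 10, and groups overlapped between RT-1dEB and LT-1dEB and along E10.5PGC, ST-1dMeioLC and PGC-1dMeioLC. The stage change was -0.86 ± 0.10 in LT, -0.46 in ST and -0.98 in RT (adjusted p = 1.6e-05, 0.0015 and 5e-06). With TPM as deposited it was -0.21, -0.11 and 0.12, none called, so the fall of Pcgf6 depended on the scale.

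E2f6 (chromosome 12, 16810963 to 16839742), the repressive E2F that lacks a transactivation domain, went the other way. Its coding-scaled TPM was 13.3 and 12.1 in LT-1dEB, 11.3 and 9.44 in ST-1dEB and 7.64 and 8.62 in RT-1dEB. E10.5PGC had 8.81 and 7.30. The meiocyte-like cells had 20.5 and 18.7 (LT), 28.3 and 22.3 (ST), 17.3 and 18.3 (RT) and 21.1 and 20.4 (PGC). All 8 meiocyte-like libraries were above the other 8. E2f6 rose by 0.59 ± 0.13 in LT, 1.21 in ST and 1.05 in RT (adjusted p = 0.0028, 1.8e-05 and 4.6e-05), and by 1.12, 1.45 and 1.85 with TPM as deposited. Of 7 listed relatives in the E2F family 6 fell and 1 rose in LT, 5 and 1 in ST, and 6 and 1 in RT; the 1 that rose was E2f5 in each line (0.66, 0.69 and 1.20), and E2f2 in ST was -0.25 (not called), with E2f1 at -2.48 and E2f4 at -2.21 in LT; with TPM as deposited 5, 5 and 3 fell and 1 rose in each line.

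Of the ubiquitin ligases, Rnf2 rose in all 3 lines and Ring1 fell in ST and RT. Rnf2 (chromosome 1, 151458004 to 151500955) had 35.3 and 36.8 coding-scaled TPM in LT-1dEB, 28.1 and 30.3 in ST-1dEB, 26.1 and 29.5 in RT-1dEB and 41.8 and 38.9 in E10.5PGC. It had 59.9 and 58.3 in LT-1dMeioLC, 65.5 and 77.6 in ST-1dMeioLC, 63.9 and 59.0 in RT-1dMeioLC and 76.7 and 82.5 in PGC-1dMeioLC, above every library of the other groups. Rnf2 rose by 0.70 ± 0.09 in LT, 1.26 in ST and 1.12 in RT (adjusted p = 6.1e-05, 7.1e-07 and 1.4e-06), and by 1.30, 1.57 and 2.12 with TPM as deposited. It was the most abundant of the 8 members in every meiocyte-like group, with Pcgf6 next and E2f6 after it.

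Its paralog Ring1 (chromosome 17, 34020792 to 34024680) had 6.37 and 8.42 coding-scaled TPM in LT-1dEB, 6.79 and 9.44 in ST-1dEB and 13.6 and 14.9 in RT-1dEB. The values were 2.76 and 3.00 in E10.5PGC, 10.4 and 8.32 in PGC-1dMeioLC, 5.01 and 6.11 in LT-1dMeioLC, 4.54 and 3.99 in ST-1dMeioLC and 3.31 and 3.14 in RT-1dMeioLC. RT-1dEB was the highest group and E10.5PGC the lowest, and PGC-1dMeioLC, ST-1dEB and LT-1dEB overlapped in a chain. Ring1 fell in ST (-0.78 ± 0.18, adjusted p = 0.0031) and RT (-1.85, adjusted p = 5.1e-06), and in LT it was -0.35 (adjusted p = 0.11, not called). The ratio of Rnf2 to Ring1, which does not depend on the scaling of a library, was between 1.93 and 5.54 in the 6 embryoid body libraries, 15.2 and 13.0 in E10.5PGC, and between 7.36 and 19.4 in the 8 meiocyte-like libraries. The embryoid body libraries were thus all below the other 10, with RT-1dEB the lowest at 1.93 and 1.99.

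Rybp (chromosome 6, 100228565 to 100287485), which binds ubiquitinated H2A and stimulates the ligase, was the least abundant member in ST-1dEB, E10.5PGC and all 4 meiocyte-like groups. It had 8.71 and 8.20 coding-scaled TPM in LT-1dEB, 5.76 and 5.64 in ST-1dEB, 9.75 and 6.82 in RT-1dEB and 1.20 and 1.20 in E10.5PGC. It had 2.67 and 3.11 in PGC-1dMeioLC, 2.06 and 2.71 in LT-1dMeioLC, 3.59 and 4.70 in ST-1dMeioLC and 2.62 and 2.35 in RT-1dMeioLC. All embryoid body libraries were above all others. Rybp fell in LT (-1.49 ± 0.18, adjusted p = 3e-05) and RT (-1.39, adjusted p = 4.5e-05), and in ST it was -0.39 (adjusted p = 0.082, not called). Yaf2, whose protein takes the same place in PRC1 and which was on the list of partners, had 24.5 ± 0.37 coding-scaled TPM in LT-1dEB, 38.2 ± 0.56 in ST-1dEB, 16.5 ± 1.49 in RT-1dEB and 10.8 ± 2.13 in E10.5PGC (SD, n = 2). It had 51.7 ± 9.14 in LT-1dMeioLC, 60.8 ± 10.6 in ST-1dMeioLC, 58.4 ± 0.92 in RT-1dMeioLC and 64.3 ± 2.49 in PGC-1dMeioLC. Yaf2 rose in all 3 lines, by 1.04, 0.65 and 1.76 in LT, ST and RT. The ratio of Yaf2 to Rybp was between 1.59 and 6.85 in embryoid body libraries, 10.3 and 7.74 in E10.5PGC and between 14.5 and 28.2 in meiocyte-like libraries, with no overlap between these 3 sets.

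**Figure D2:**
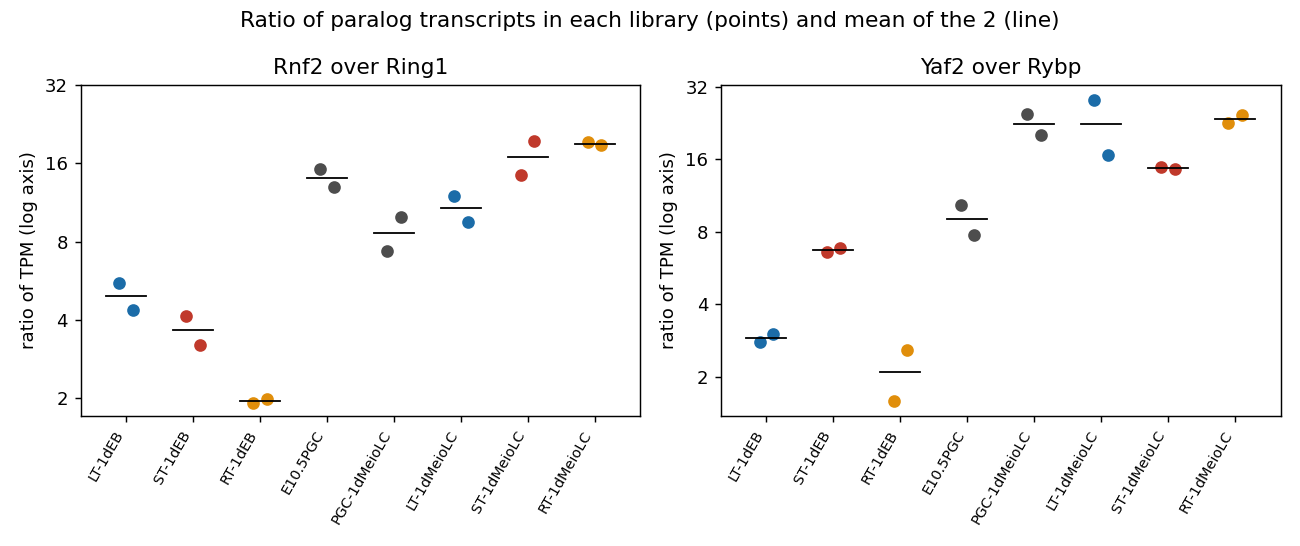
Ratio of Rnf2 to Ring1 and of Yaf2 to Rybp in each library, on a log axis; each point is a library, each line the mean of a group's 2 ratios, and groups stand along the horizontal axis. The embryoid body libraries lie lowest in both panels, at 1.93 to 5.54 and 1.59 to 6.85.

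Cultured embryonic PGCs showed another pattern. Between E10.5PGC and PGC-1dMeioLC, 7 members passed (6 higher, 1 lower; of all genes 53.9% passed, 38.9% higher and 15% lower). Ring1 rose by 1.41 ± 0.18 (adjusted p = 6.5e-05), E2f6 by 1.27 (adjusted p = 1.7e-05), Rnf2 by 0.96 (adjusted p = 7.8e-06), Max by 0.91 (adjusted p = 2e-05), Rybp by 0.82 (adjusted p = 0.0027) and Mga by 0.76 (adjusted p = 2.8e-05). L3mbtl2 fell by 1.21 (adjusted p = 7.1e-06), and Pcgf6 was -0.15 (adjusted p = 0.21). E2f6, Rnf2 and L3mbtl2 thus had the sign they had in the 3 ESC lines, while Mga, Max, Ring1 and Rybp had the other sign; the difference between the PGC change and those of the ESC lines was not tested. The median change of all genes was 0.28, and 0.13 with TPM as deposited. Under quantile normalization Mga was 0.28, Max 0.41 and Ring1 0.59, all called, and Rybp was 0.04, not called. All 7 calls held with each library left out.

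E10.5PGC, the starting PGCs, had lower levels than LT-1dEB for 7 members and none higher (of all genes 61.5% passed, 16% higher and 45.4% lower). The log2 differences were -2.10 for Rybp, -1.96 for L3mbtl2, -1.73 for Mga, -1.51 for Max, -1.10 for Ring1, -0.62 for Pcgf6 and -0.60 for E2f6, with adjusted p from 4e-08 to 0.0026; Rnf2 was 0.16 (adjusted p = 0.16). The median of all genes was -0.50 here, and -0.03 with TPM as deposited, where L3mbtl2 was -1.28, Mga -1.05 and Max -0.85, all called, Pcgf6 was 0.03 and E2f6 0.00, neither called, and Rnf2 was 0.78, called. Under quantile normalization Ring1 was -0.21 and E2f6 0.10, neither called. The 2 groups differ in being sorted cells from embryos and whole aggregates from culture, which cannot be told apart from stage.

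Between the meiocyte-like cells of the LT line and of PGCs, 5 members passed (1 higher, 4 lower in LT-1dMeioLC; of all genes 22.1% passed, 8.32% higher and 13.8% lower). L3mbtl2 was higher by 0.74 ± 0.11 (adjusted p = 0.0016), and Mga (-0.57, adjusted p = 0.0015), Ring1 (-0.66, adjusted p = 0.026), Rnf2 (-0.42, adjusted p = 0.0097) and Max (-0.34, adjusted p = 0.036) were lower. Pcgf6 (-0.08), E2f6 (-0.08) and Rybp (-0.21) did not pass. The call of Mga held under every alternative, and those of Mga and L3mbtl2 with each library left out. Max lost its call without PGC-1dMeioLC replicate 2 or either LT-1dMeioLC library, Rnf2 without replicate 2 of either group, and Ring1 without PGC-1dMeioLC replicate 1 or either LT-1dMeioLC library. With TPM as deposited Max, Rnf2 and Ring1 were not called.

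Differences by telomere state lay between -0.63 and 0.87 on the log2 scale. In embryoid bodies, 4 members passed between ST and LT (1 higher, 3 lower in ST; of all genes 40.7% passed, 22% higher and 18.8% lower). Max was higher in ST by 0.55 ± 0.10 (adjusted p = 0.0012), and this call held under every alternative tried. Pcgf6 (-0.29, adjusted p = 0.035), Rnf2 (-0.29, adjusted p = 0.027) and Rybp (-0.50, adjusted p = 0.048) were lower, and Mga (-0.18), E2f6 (-0.28), L3mbtl2 (-0.20) and Ring1 (0.11) did not pass. Pcgf6 lost its call without either ST-1dEB library or LT-1dEB replicate 1, Rnf2 without ST-1dEB replicate 1 or either LT-1dEB library, and Rybp without any of the 4 libraries; all 3 lost it with TPM as deposited (-0.09, -0.10 and -0.28), and Rybp lost it with the replicate number as a block (adjusted p = 0.062). The summed stroma markers, given above, were more abundant in ST-1dEB than in LT-1dEB; their part in these differences was not tested.

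Between RT and ST embryoid bodies 5 members passed (4 higher, 1 lower in RT; of all genes 35.7% passed, 18.6% higher and 17% lower). Ring1 was higher in RT by 0.75 ± 0.18 (adjusted p = 0.0083), L3mbtl2 by 0.66 (adjusted p = 0.0014), Pcgf6 by 0.35 (adjusted p = 0.017) and Mga by 0.30 (adjusted p = 0.021), and Max was lower by 0.33 (log2 difference -0.33, adjusted p = 0.026). These directions depended on the scale: with TPM as deposited 5 members passed and all were lower in RT, with Pcgf6 at -0.29, Mga at -0.32 and Max at -0.92, E2f6 at -0.76 and Rnf2 at -0.66, while L3mbtl2 was 0.02 and Ring1 0.13. The median of all genes was 0.04 on the coding scale and -0.38 as deposited. On the coding scale the call of L3mbtl2 held with each library left out; Pcgf6 lost its call without ST-1dEB replicate 1 or either RT-1dEB library, Mga without any of the 4 libraries, Max without ST-1dEB replicate 2 or either RT-1dEB library, and Ring1 without ST-1dEB replicate 1 or RT-1dEB replicate 2.

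RT and LT embryoid bodies differed in 4 members (2 higher, 2 lower in RT; of all genes 37.9% passed, 23.5% higher and 14.4% lower). Ring1 (0.87 ± 0.18, adjusted p = 0.0034) and L3mbtl2 (0.46, adjusted p = 0.0095) were higher in RT, and E2f6 (-0.59, adjusted p = 0.006) and Rnf2 (-0.36, adjusted p = 0.01) lower. With TPM as deposited Ring1 was 0.38 and L3mbtl2 0.01, neither called, and 4 members were called lower, E2f6 (-0.85), Rnf2 (-0.76), Pcgf6 (-0.39) and Mga (-0.31); the median of all genes was 0.10 on the coding scale and -0.17 as deposited. E2f6 held its call under every alternative. L3mbtl2 lost its call without RT-1dEB replicate 2, and Rnf2 without LT-1dEB replicate 2 or RT-1dEB replicate 1.

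In the meiocyte-like cells, 2 members passed between ST and LT, both higher in ST (of all genes 33.9% passed, 20.1% higher and 13.8% lower). They were Rybp (0.60 ± 0.18, adjusted p = 0.025) and Rnf2 (0.27 ± 0.09, adjusted p = 0.048). Rybp lost its call without ST-1dMeioLC replicate 2 or LT-1dMeioLC replicate 1, and Rnf2 without ST-1dMeioLC replicate 2 or either LT-1dMeioLC library. Both lost it under quantile normalization and with only the groups compared, and Rnf2 also with TPM as deposited and with no filter. Between RT and ST 4 members passed, all lower in RT (of all genes 34.5% passed, 10.4% higher and 24.1% lower): Mga (-0.41, adjusted p = 0.0048), Max (-0.39, adjusted p = 0.013), E2f6 (-0.47, adjusted p = 0.021) and Rybp (-0.55, adjusted p = 0.036). Mga held its call with each library left out; Max lost it without ST-1dMeioLC replicate 2 or RT-1dMeioLC replicate 1, Rybp without those or RT-1dMeioLC replicate 2, and E2f6 without ST-1dMeioLC replicate 1 or either RT-1dMeioLC library. Under quantile normalization none of the 4 was called, and with TPM as deposited E2f6 was not called. Between RT and LT, Mga (-0.32, adjusted p = 0.03) and Ring1 (-0.63, adjusted p = 0.038) were lower in RT (of all genes 16.5% passed, 5.75% higher and 10.8% lower), and both lost the call without any of the 4 libraries. The germ cell marker sum was 308 to 319 in ST-1dMeioLC, 1576 to 1646 in LT-1dMeioLC and 1109 to 1166 in RT-1dMeioLC. The part of that makeup in these differences was not tested.

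**Figure D3:**
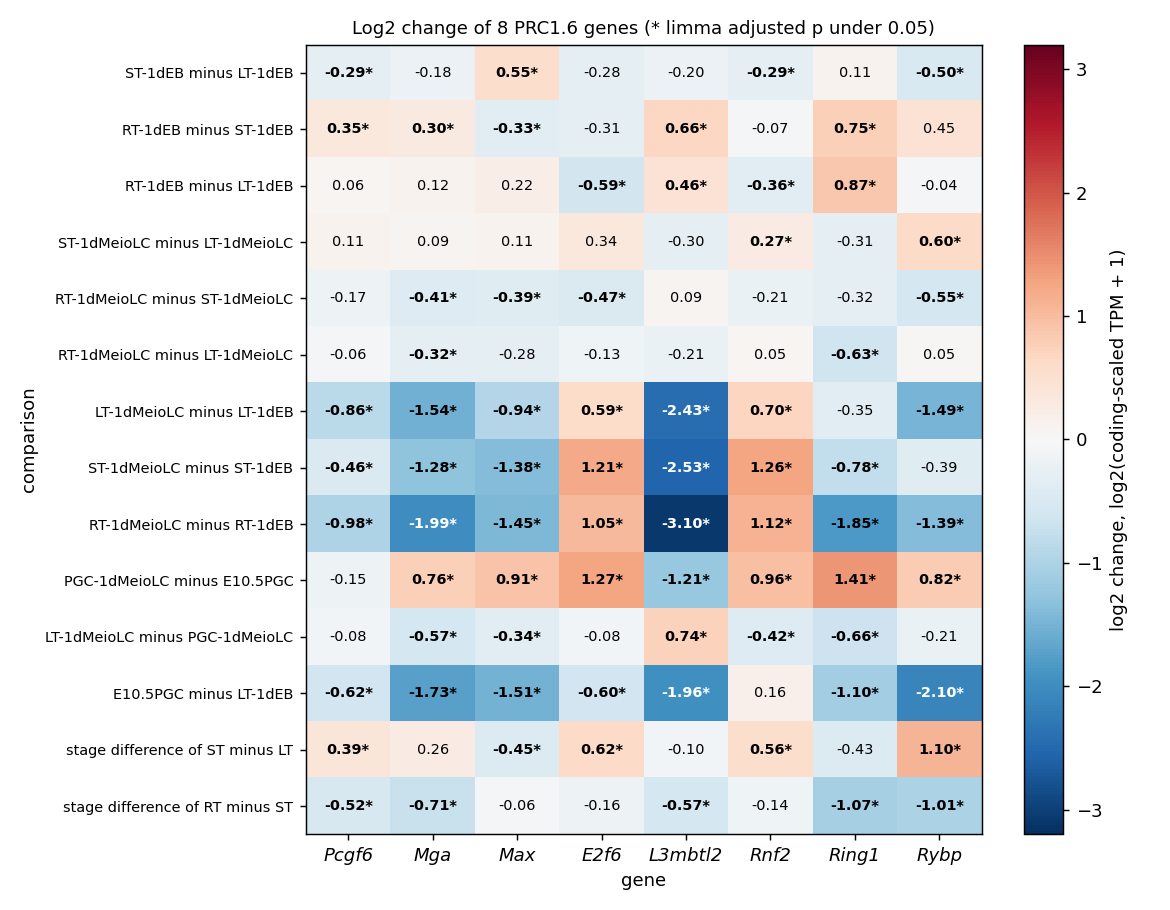
Heat map of the log2 change of each member (columns) in the 14 comparisons (rows), from limma on log2(coding-scaled TPM + 1); each cell prints the fitted change, red is higher and blue is lower in the group named before minus, and bold with a star marks an adjusted p under 0.05. The changes from embryoid body to meiocyte-like cell reach -3.10 for L3mbtl2 in RT, while the 6 telomere comparisons within a stage stay between -0.63 and 0.87.

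Whether the telomere difference itself changed with stage was tested as the difference between the 1dMeioLC and the 1dEB contrasts. For ST minus LT 5 members passed (4 higher, 1 lower; of all genes 37.8% passed, 18.9% higher and 18.8% lower). Rybp (1.10 ± 0.25, adjusted p = 0.0064) held under every alternative in which it was tested (the filter of 5 TPM removed it), and Rnf2 (0.56 ± 0.13, adjusted p = 0.0068) with each library left out. E2f6 (0.62, adjusted p = 0.027), Pcgf6 (0.39, adjusted p = 0.041) and Max (-0.45, adjusted p = 0.03) did not hold with each library left out. Pcgf6 lost its call without either ST-1dEB or LT-1dMeioLC library, LT-1dEB replicate 1 or ST-1dMeioLC replicate 1, with both RT-1dEB libraries out of the fit, and with the replicate number as a block (adjusted p = 0.055); Max without replicate 2 of ST-1dEB or LT-1dEB, ST-1dMeioLC replicate 1 or either LT-1dMeioLC library; and E2f6 without ST-1dEB replicate 2, LT-1dEB replicate 1, ST-1dMeioLC replicate 1 or LT-1dMeioLC replicate 2. With TPM as deposited Rybp (0.73) and Max (-0.70) were called, and Rnf2 (0.27), E2f6 (0.33) and Pcgf6 (0.10) were not. For RT minus ST 5 passed, all lower (of all genes 34.5% passed, 22% lower): Ring1 (-1.07 ± 0.25, adjusted p = 0.009), Rybp (-1.01, adjusted p = 0.012), Mga (-0.71, adjusted p = 0.0016), L3mbtl2 (-0.57, adjusted p = 0.021) and Pcgf6 (-0.52, adjusted p = 0.014). With TPM as deposited none of those 5 was called (-0.34, -0.32, 0.02, 0.14 and 0.22), and the median of all genes was 0.37 in place of -0.18. L3mbtl2 lost its call without ST-1dEB replicate 1, RT-1dEB replicate 2, ST-1dMeioLC replicate 2 or RT-1dMeioLC replicate 2.

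Most of the listed genes that PRC1.6 is known to hold silent rose from 1dEB to 1dMeioLC. Of 26 listed germ line and meiotic genes 24 were tested; Tdrd1 and Spo11 were too low. From 1dEB to 1dMeioLC 24 of 24 rose in LT, 23 in ST and 21 in RT, and none fell, with list medians of 2.83, 2.34 and 2.45 on the log2 scale against -0.17, -0.21 and -0.45 for all genes; of all genes 27.6%, 25.5% and 23.5% were higher. Stra8, a gatekeeper of meiosis that retinoic acid induces, rose by 6.66 ± 0.19 in LT (adjusted p = 5.9e-10), Dazl, a germ cell RNA-binding protein, by 6.04, and Slc25a31 by 6.03. The promoters of Stra8 and Dazl held neither the E-box nor the E2F core. Slc25a31, whose promoter is printed above, lay between 0.26 and 2.86 coding-scaled TPM in the 6 embryoid body libraries, at 43.1 and 45.0 in E10.5PGC, and between 15.7 and 175 in the 8 meiocyte-like libraries. In E10.5PGC to PGC-1dMeioLC 19 rose and none fell (median 1.83; of all genes 38.9% were higher), with Stra8 at 9.10 and Taf7l at 5.24. The list was drawn up with earlier results of these data known.

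Between ST and LT and between RT and ST in 1dMeioLC, the germ line list and the members did not run parallel in count. In the other telomere comparisons of this paragraph most called members had the direction of the list on the coding scale. With stage in the LT, ST and RT lines the list rose, while most called members fell. In 1dMeioLC 19 of 24 germ line genes were lower in ST than in LT and none higher (median -1.23; of all genes 13.8% were lower), led by Mov10l1 (-2.87), Slc25a31 (-2.56), Ddx4 (-2.36) and Mael (-2.29), while no member was called lower. Between RT and ST 14 were higher in RT and none lower (median 0.71; of all genes 10.4% were higher), led by Slc25a31 (2.04), Mov10l1 (1.84), Mael (1.76) and Ddx4 (1.55), where 4 members were called lower. Under quantile normalization none of those 4 members was called. In 1dEB 12 were lower in ST than in LT and none higher (median -0.48; of all genes 18.8% were lower), and 15 were higher in RT than in ST and none lower (median 0.64; of all genes 18.6% were higher); with TPM as deposited the latter counts were 1 higher and 2 lower. Of the members, Pcgf6, Rnf2 and Rybp were called lower in ST-1dEB than in LT-1dEB, and Max higher. In RT-1dEB against ST-1dEB, Ring1, L3mbtl2, Pcgf6 and Mga were called higher and Max lower. With TPM as deposited, only the calls of Max held in these comparisons. Pcgf6 and Mga were then called lower in RT-1dEB than in ST-1dEB, and the other calls were lost. RT-1dMeioLC had 10 of 24 below LT-1dMeioLC and none above (of all genes 10.8% were lower). The germ cell marker sum had the same order as the germ line list in 1dMeioLC, but Dazl and Ddx4 are in both lists, so these orders are not independent. It was 308 to 319 in ST-1dMeioLC, 1109 to 1166 in RT-1dMeioLC and 1576 to 1646 in LT-1dMeioLC. The part of germ cell content in these germ line differences was not tested, so they are not a measure of repression per cell.

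**Figure D4:**
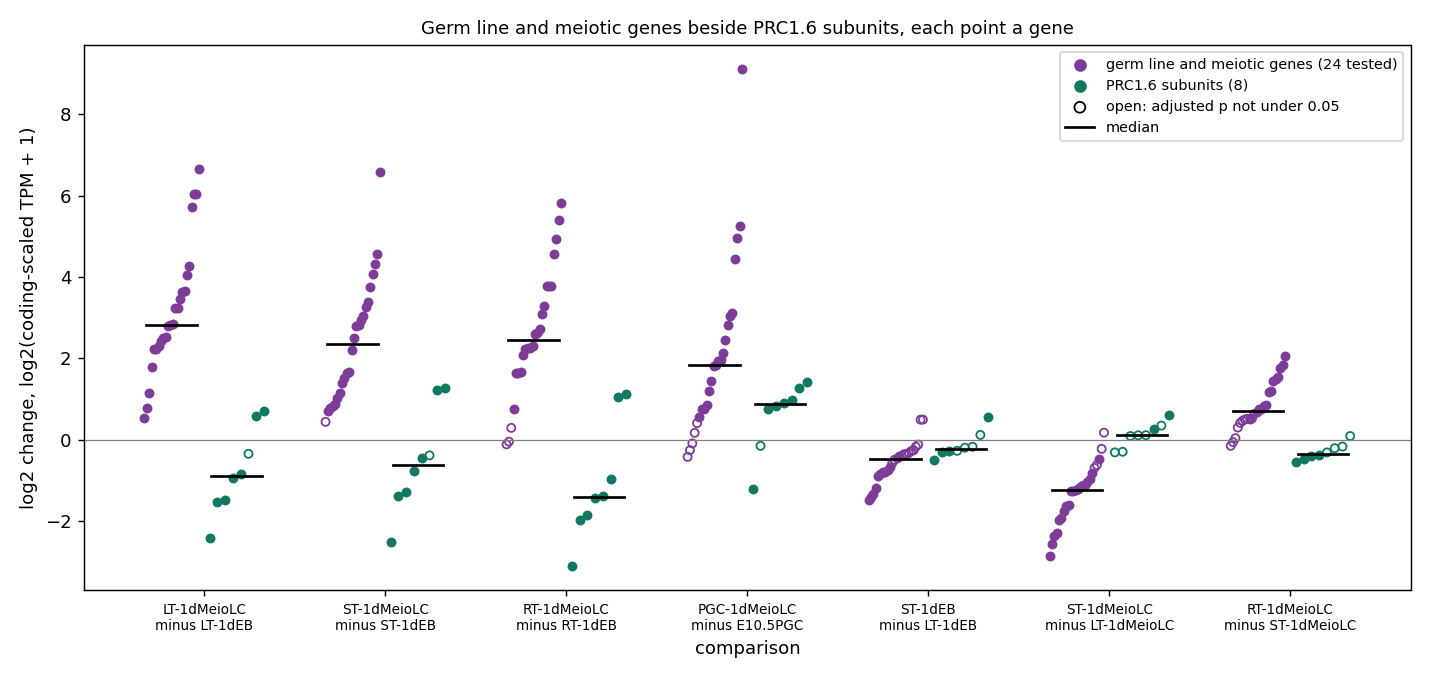
Log2 changes of the 24 tested germ line and meiotic genes and of the 8 members (vertical axis) in 7 comparisons (horizontal axis), from the same limma fit; each point is a gene, open where the adjusted p was not under 0.05, and each line is a list's median. In the LT change from embryoid body to meiocyte-like cell the germ line genes have a median of 2.83, while the members run from -2.43 to 0.70.

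The counts of other lists stand beside shares of all genes, which with stage were 27.6% higher and 37.5% lower in LT, 25.5% and 37.5% in ST, and 23.5% and 45.1% in RT. Of 8 further PRC1.6 partners 3 rose and 3 fell with stage in LT, 5 and 3 in ST, and 4 and 4 in RT; in LT the deacetylase Hdac1 was at -2.77, the heterochromatin protein gene Cbx3 at 2.22, Wdr5 at -1.51 and the ubiquitin protease Usp7 at -1.43. Of 18 other PRC1 subunits 4 rose and 11 fell in LT, 2 and 8 in ST, and 4 and 10 in RT, with Phc1 at -3.36, Cbx7 at -3.15, Bmi1 (Pcgf4) at 2.83 and Pcgf2 at -2.27 in LT; with TPM as deposited the counts were 7 and 7, 8 and 7, and 9 and 6. Of 12 PRC2 genes 1 rose and 8 fell in LT, and 3 rose and 7 fell in both ST and RT (with TPM as deposited 5 and 6, 5 and 4, and 7 and 3), with Epop at -5.15 in LT. Of 10 genes of the MYC and MAX network 2 rose and 6 fell in LT, none and 6 in ST, and none and 8 in RT, with Mnt at -2.62 and Mycn at -2.26 in LT; with TPM as deposited 4 and 6, 1 and 5, and 4 and 2. Of 9 other silencers of germ line genes all 9 fell in LT and in RT and 7 in ST, led in LT by the DNA methyltransferase gene Dnmt3b (-5.29) and Uhrf1 (-2.41), whose protein brings DNMT1 to DNA; with TPM as deposited 6, 4 and 4 fell and 1, 2 and 2 rose. In ST-1dEB against LT-1dEB, 7 of the 8 partners were lower and 1 higher (of all genes 18.8% were lower and 22% higher). Cbx3 was at -1.29 and Yaf2 at 0.62. Of the PRC2 genes 7 were lower and 1 higher, with Suz12 at -1.51 and Ezh2 at -1.34. Phf1 went the other way, at 26.3 to 26.8 coding-scaled TPM in ST-1dEB and 6.01 to 8.96 in LT-1dEB. With TPM as deposited, the ST-1dEB mean of Phf1 was also above that of LT-1dEB (11.76 against 2.903). Those of Suz12 (18.9 against 47.98) and Ezh2 (6.92 against 15.96) were below.

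The group means of several pairs of members had a Pearson r far from 0, as a description over 8 groups that share the scaling. L3mbtl2 had an r of 0.96 with Pcgf6 and -0.95 with Rnf2, Pcgf6 had 0.92 with Mga, Mga had 0.90 with Rybp, and E2f6 had 0.90 with Rnf2. Other pairs were weaker: Ring1 had 0.58 with L3mbtl2 and -0.24 with E2f6, and Rybp had -0.21 with E2f6. Against 10984 genes with a group mean of at least 10 coding-scaled TPM, the profiles most like Pcgf6 were Camkv, Acin1 and Etnk1 (r of 0.994 each), and 594 genes had an r over 0.95 with it. For Mga they were Pdap1 (0.995), Celf1 (0.993) and Zc3h4 (0.992), with 329 genes over 0.95, and for L3mbtl2 Smg5 (0.992), Zfp668 (0.991) and Snora65 (0.990), with 450. For E2f6 they were Mal2 (0.986), Scd2 (0.985) and Stk39 (0.984), with 56. The highest group mean was 4.27 times the lowest for Mga, 4.51 for Max, 3.14 for E2f6, 2.86 for Rnf2, 4.93 for Ring1 and 7.05 for Rybp.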

How the data were processed

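RNA was measured by RNA-seq libraries (NEBNext Ultra kit, per the labels' protocols) in 28 samples. The authors deposited expression as TPM for 53564 genes. Per the submitters' processing notes the tools were RSEM, DESeq2, HISAT2, Bowtie2 and R 3.4.2, and the build mm10, with no role stated for any of them. The values used are not read counts, so depth is unknown and no counting interval was computed. Of the columns, 16 have names of their own and were used; 12 carry 6 names, each 2 times, and were not used. TPM was divided by each library's nuclear protein-coding sum (gene types from GENCODE M21, matched by symbol). The filter on low values asked for 1 TPM or more in 2 or more libraries and left 21935 genes. Limma 3.58.1 in R 4.3.3 fitted log2(coding-scaled TPM + 1), with a pseudocount of 1, 8 group means and an intensity trend (8 residual and 2.17 prior degrees of freedom), 14 comparisons, 2-sided tests, Benjamini-Hochberg adjustment over all genes kept, and a threshold of 0.05. A fold change on this scale understates the change of low genes. The script was tested on simulated data. Comparisons that share a group share its libraries. The members, the scaling and the gene lists were chosen with earlier results of these data known. All members are named; from other lists, up to 4 genes with the largest change past the threshold, and for Pcgf6, Mga, L3mbtl2 and E2f6 the 3 genes of highest Pearson r over the 8 group means. Promoter letters are from RefSeq (GRCm38.p6), with an entry for 7 of the 8 members. Alternatives were TPM as deposited, quantile normalization, pseudocounts of 0.1 and 5, no filter, a filter of 5 TPM, only the groups compared, a replicate block and each library left out; chosen after the data were seen were quantile normalization of protein-coding genes alone and a fit without RT-1dEB.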

Additional observations from a re-analysis of the deposited data

Results flagged for a closer look

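The difference between ST and LT changed with stage (1dMeioLC contrast minus 1dEB contrast, limma) for 5 members: Rybp by 1.10, E2f6 by 0.62, Rnf2 by 0.56, Pcgf6 by 0.39 and Max by -0.45 on the log2 scale, where 37.8% of all genes passed; the calls of E2f6, Pcgf6 and Max each ended when single libraries were left out. The difference between RT and ST changed with stage for 5 members: Ring1 by -1.07, Rybp by -1.01, Mga by -0.71, L3mbtl2 by -0.57 and Pcgf6 by -0.52, where 34.5% of all genes passed. None of these 5 was called with TPM as deposited, and Mga (0.02), L3mbtl2 (0.14) and Pcgf6 (0.22) had the other sign. The germ cell, stroma and protein-coding shares of the libraries moved between these groups too, as given above, and their part was not tested.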

How the results depend on the processing

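Counts of members called in each comparison were recomputed under each alternative. No filter gave 1 for ST minus LT in 1dEB, 1 for ST minus LT and 1 for RT minus LT in 1dMeioLC, 3 for LT-1dMeioLC against PGC-1dMeioLC and 2 for the stage difference of ST minus LT. Fitting only the groups compared gave 1 and 3 (ST minus LT and RT minus ST in 1dEB), 0, 0 and 0 (the 3 telomere comparisons in 1dMeioLC), 2 for LT against PGC meiocyte-like cells and 3 for the stage difference of ST minus LT; fewer libraries enter that fit. A filter of 5 TPM gave 1 and 1 for ST minus LT and RT minus LT in 1dMeioLC and 3 for the stage difference of RT minus ST, because Ring1 and Rybp fell below it; none of the other 6 members lost a call there. A pseudocount of 5 gave 1 for RT minus LT in 1dMeioLC. Quantile normalization gave 7 for ST minus LT in 1dEB, 1, 0 and 0 in 1dMeioLC (ST minus LT, RT minus ST, RT minus LT) and 3 for LT against PGC meiocyte-like cells; over protein-coding genes alone it gave 7 for ST minus LT in 1dEB and 1 and 1 for RT minus ST and RT minus LT in 1dMeioLC. TPM as deposited gave 1 for ST minus LT in 1dEB, 2 for LT against PGC meiocyte-like cells, and 2 and 2 for the stage differences. The cause was not tested for the scalings and the pseudocount.

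With TPM as deposited, directions turned for Pcgf6 (-0.295) and Mga (-0.322) in RT minus ST and for Pcgf6 (-0.389) and Mga (-0.312) in RT minus LT 1dEB, for Pcgf6 in the RT stage change (0.115) and in E10.5PGC minus LT-1dEB (0.027), and in the stage difference of RT minus ST for Pcgf6 (0.224), Mga (0.022), Max (0.644), L3mbtl2 (0.145) and Rnf2 (0.548). E2f6 in E10.5PGC minus LT-1dEB turned to 0.103 under quantile normalization and to 0.097 over protein-coding genes alone, where Rybp in PGC-1dMeioLC minus E10.5PGC turned to -0.112.

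Leaving out each library gave 7 to 7 members called for the LT and ST stage changes, 8 to 8 for RT, 7 to 8 for the PGC change and 7 to 7 for E10.5PGC minus LT-1dEB. In 1dEB it gave 1 to 2 (ST minus LT), 2 to 3 (RT minus ST) and 3 to 4 (RT minus LT), in 1dMeioLC 0 to 2, 1 to 4 and 0 to 0, for LT against PGC meiocyte-like cells 2 to 4, and for the stage differences 2 to 5 and 4 to 5; a lone library was assumed to vary like the other groups. Leaving both RT-1dEB libraries out of the fit moved no count by more than 1.

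Libraries with the same replicate number showed no shared deviation over the genes kept: r ran from -0.034 to 0.043 over 28 pairs of groups, none over 0.1. This does not show whether such libraries were handled together. With the number as a replicate block 3 members were called in ST minus LT 1dEB, without Rybp, and 4 in the stage difference of ST minus LT, without Pcgf6, with the other counts as without it, and genes called over all comparisons went from 132825 to 131403.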
